A study of Mus musculus with 703 samples.

Results

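The genes described here are 8 genes of the peroxisome, chosen by symbol from the 19088 genes in the deposited count table: Ehhadh, Acaa1a, Hsd17b4, Abcd2, Abcd3, Pex11a, Crot and Cat. All 8 were present, each once, and all 8 passed the filter on low counts in every comparison. RNA had been sequenced from gastrocnemius, a calf muscle, of 703 mice, 1 library per animal. The animals came from 20 CC-RIX strains, each of which is the F1 offspring of 2 inbred Collaborative Cross lines, so animals of a strain share a genotype apart from the sex chromosomes. They ate a diet labelled 10% fat + fiber or 44% fat + fiber from 6 weeks of age. The authors describe a high-fat, high-sugar diet and a control diet, so the diets did not differ in fat alone. Both are named below by their percent of fat. Of the 469 untreated animals 234 ate 10% fat and 235 ate 44% fat, and 236 were females and 233 males, divided almost evenly over the diets. Metformin, an oral drug for type 2 diabetes, was given in the drinking water at 5 mg/mL to 57 females and 59 males on 10% fat and to 59 females and 59 males on 44% fat. The drug began at 7 months of age, after a 6-month cohort had been taken, and animals were otherwise taken at 12 months. Ages of single animals are not in the labels, so treated animals are all of the older cohort, untreated animals can be of either, and metformin and age cannot be told apart. A strain held 10 to 26 untreated and 7 to 13 treated animals.

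Peroxisomes are small organelles that shorten very long, branched and dicarboxylic fatty acids by beta-oxidation, a cycle of oxidation, hydration, oxidation again and cleavage. The ATP-driven transporters ABCD2 and ABCD3 carry acyl-CoA molecules across the peroxisomal membrane. EHHADH and HSD17B4 are bifunctional enzymes that each catalyse the middle steps of the cycle, on different substrates, and ACAA1A is the thiolase that cleaves the shortened chain. CROT, carnitine O-octanoyltransferase, attaches medium-length products to carnitine for export to mitochondria. CAT, catalase, breaks down the hydrogen peroxide that the first oxidation releases, and PEX11A is a membrane protein that promotes peroxisome division. In liver, several of these genes are well-known targets of PPAR-alpha, a receptor activated by fatty acids.

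Total counts ran from 27.4 M to 96.1 M in a library (M, 1000000 counts), with a median of 47.9 M. The 8 muscle markers checked, among them Acta1, Ckm and Myh4, were high in every library, with a summed level of at least 74840 CPM. CPM, the counts of a gene per 1000000 counts of its library, were scaled with TMM factors, which correct for a few very abundant genes, except for marker sums, which were left unscaled. Hepatocyte markers such as Alb were near 0 in most libraries, with a median summed level of 2.53 CPM, but exceeded 10 times that median in 65 untreated libraries, and in some treated ones, and reached 7384 CPM. In 15 libraries the level of Xist, the only sex-linked gene checked, went against the labelled sex, and 4 libraries were nearest another strain. Results were computed with and without these libraries. Each library is 1 animal, so p-values measure the spread between animals. The authors assigned diet and housing by litter, and neither litter nor cage was in the model.

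The members were compared with each other per kilobase of exon, using exon lengths from the GENCODE M21 annotation. The length is that of all annotated exons of a gene together, over all its transcripts. Which transcripts the muscle held was not examined, so the order below depends on the annotation. On this scale Cat had the highest level in untreated animals, with a median of 29.4 CPM per kb, followed by Hsd17b4 at 16.2 CPM per kb. Cat was above Hsd17b4, and Hsd17b4 above the next gene, in 100% of the 469 libraries. Abcd2, Abcd3 and Crot formed a middle group with medians of 8.39, 7.82 and 7.15 CPM per kb. Abcd2 was above Abcd3 in 66.7% of libraries and Abcd3 above Crot in 61.6%, so these neighbours changed places often. Acaa1a (4.52 CPM per kb), Pex11a (3.69) and Ehhadh (2.10) were lowest. Ehhadh therefore rested on the fewest reads, with a median of 306 counts per library and at most 1705, while Cat had a median of 3689 counts. Reads of Acaa1a are the least certain to assign. Of the 4990 different stretches of 100 bases in its annotated transcripts, 7.21% also occur in its close copy Acaa1b and 2.51% in Myd88, whose exons overlap it on the other strand. For Crot the shared part was 1.25% with Gm37153 and 0.112% with Fam169b, and the other members shared none.

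Positions are given on GRCm38, the build named in the submitters' processing notes, from the GENCODE M21 annotation. Cat (ENSMUSG00000027187) lies on chromosome 2 from 103453849 to 103485160. Abcd2 (ENSMUSG00000055782) lies on chromosome 15 from 91145871 to 91191799 and Abcd3 (ENSMUSG00000028127) on chromosome 3 from 121758774 to 121815302. Crot (ENSMUSG00000003623) spans 8966033 to 8997324 on chromosome 5, and Acaa1a (ENSMUSG00000036138) 119339676 to 119350299 on chromosome 9. Pex11a (ENSMUSG00000030545) spans 79735957 to 79743131 on chromosome 7, and Ehhadh (ENSMUSG00000022853) 21761287 to 21787807 on chromosome 16. Of the members, 6 had promoters in the RefSeq table used here (GRCm38.p6), as windows of 250 bases before to 50 after the annotated start, and Abcd2 and Hsd17b4 are named only. Both strands of each window were searched for AGGTCANAGGTCA, the pair of AGGTCA repeats spaced by 1 base to which PPAR and RXR receptors bind, with up to 2 mismatches. The Cat window held 1 such match, which begins 204 bases before the start and has 2 mismatches. No other window of the members held one, and a match of this quality was present in 1268 of all 32851 promoters (3.86%). A match is a description of letters, and its absence from these windows says nothing about binding elsewhere. The 250 bases before the start are printed for the member that rose most on 44% fat (Cat), for 2 others that rose (Pex11a and Abcd3) and for the one that fell in every strain (Crot), 5′ to 3′ on the strand of the gene, with the match in capitals.
Cat (chr2:103485154-103485403, minus strand): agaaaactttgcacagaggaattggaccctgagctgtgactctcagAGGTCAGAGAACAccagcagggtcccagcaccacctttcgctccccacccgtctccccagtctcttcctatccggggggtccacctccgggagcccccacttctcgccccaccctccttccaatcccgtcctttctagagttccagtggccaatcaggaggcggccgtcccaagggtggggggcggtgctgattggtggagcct
Pex11a (chr7:79743132-79743381, minus strand): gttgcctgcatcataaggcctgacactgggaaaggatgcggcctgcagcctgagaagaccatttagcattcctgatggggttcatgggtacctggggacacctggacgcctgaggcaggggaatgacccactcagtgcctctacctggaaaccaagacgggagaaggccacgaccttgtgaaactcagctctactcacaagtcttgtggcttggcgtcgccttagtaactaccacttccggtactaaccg
Abcd3 (chr3:121815303-121815552, minus strand): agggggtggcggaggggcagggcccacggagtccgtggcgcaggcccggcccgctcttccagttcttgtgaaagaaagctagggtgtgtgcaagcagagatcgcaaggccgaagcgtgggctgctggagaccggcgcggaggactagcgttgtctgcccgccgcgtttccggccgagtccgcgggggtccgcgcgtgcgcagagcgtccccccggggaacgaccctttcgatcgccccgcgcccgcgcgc
Crot (chr5:8997147-8997396, minus strand): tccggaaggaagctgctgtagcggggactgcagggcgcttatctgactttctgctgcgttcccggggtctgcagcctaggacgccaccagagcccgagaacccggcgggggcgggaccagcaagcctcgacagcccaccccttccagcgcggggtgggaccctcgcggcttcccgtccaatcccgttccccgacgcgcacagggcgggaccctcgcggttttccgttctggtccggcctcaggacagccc

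The comparison of diets asked which of these genes differ between 44% and 10% fat in untreated muscle. Cat, Pex11a, Hsd17b4 and Abcd3 were higher on 44% fat, Crot and Abcd2 were lower, and Ehhadh and Acaa1a showed no difference that passed the test. Of the 8 members, 6 were called at an adjusted p under 0.05 (edgeR quasi-likelihood F test, Benjamini-Hochberg over 16384 genes), 4 higher and 2 lower. Among all genes tested, 20.3% were called, 10.1% higher and 10.1% lower. The differences were small. The median size of the log2 difference was 0.11 over the members and 0.04 over all genes, and the ranges of the diets overlapped for all members.

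Cat had the largest change. Its level on 10% fat ran from 42.4 to 200.4 CPM with a median of 69.6, and on 44% fat from 45.5 to 150.3 CPM with a median of 85. The means were 71.6 ± 18.8 (SD, n = 234) and 85.9 ± 16.5 CPM (SD, n = 235), a log2 difference of 0.27 ± 0.02 (SE) with an adjusted p of 2.42e-23. The difference was positive within all 20 strains, from 0.06 in (CC024/GeniUncJ x CC002/UncJ)F1 to 0.52 in (CC011/UncJ x CC027/GeniUncJ)F1. The 3 highest Cat libraries, at 200.4, 192.8 and 150.3 CPM, also had summed hepatocyte markers of 7384, 3836 and 1969 CPM. Liver is rich in catalase. Without the 65 untreated libraries of high hepatocyte markers the highest Cat level was 130.0 CPM, and Cat was still called for diet.

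Pex11a ran from 6.94 to 16.7 CPM with a median of 11.1 on 10% fat and from 8.07 to 22.7 CPM with a median of 12.4 on 44% fat. Its log2 difference was 0.17 ± 0.02 (SE), adjusted p = 4.71e-20, and was positive in all 20 strains. Hsd17b4 (ENSMUSG00000024507), on chromosome 18, had medians of 52.3 (35 to 86.2) and 57.8 CPM (35.5 to 78.9), and a log2 difference of 0.14 ± 0.01 (SE) with an adjusted p of 4.27e-21. Abcd3 had medians of 49.2 (38.6 to 74.4) and 54 CPM (40.4 to 72.6), and a log2 difference of 0.12 ± 0.01 (SE) with an adjusted p of 1.75e-19. Hsd17b4 and Abcd3 were also higher on 44% fat within every one of the 20 strains, with the smallest differences, 0.02 and 0.01, again in (CC024/GeniUncJ x CC002/UncJ)F1. Their highest levels, 86.2 and 74.4 CPM, came from the same library, with summed hepatocyte markers of 3836 CPM. Without libraries of high hepatocyte markers their highest untreated levels were 78.9 and 72.6 CPM.

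Crot and Abcd2 went the other way. Crot, the octanoyltransferase, had medians of 40.8 CPM (27.2 to 90.3) on 10% fat and 37.6 CPM (24 to 65.6) on 44% fat. It fell by 0.10 ± 0.02 (SE) on the log2 scale, adjusted p = 5.67e-08, and was lower on 44% fat in all 20 strains. Abcd2 had medians of 51.1 CPM (28.2 to 76.1) and 48.5 CPM (24.9 to 84.5), fell by 0.08 ± 0.02 (SE), adjusted p = 0.000327, and was lower in 18 of 20 strains. The transporters Abcd2 and Abcd3 thus differed in opposite directions. The libraries fall into 2 ranges of sequencing identifiers, which were kept as a term in the model. In the lower range alone, with 400 untreated libraries and 17.2% of genes called, the same 6 members were called. In the upper range, with 69 libraries and 2.2% of genes called, Cat (0.28), Hsd17b4 (0.15) and Crot (-0.20) were called, and Pex11a (0.17), Abcd3 (0.09) and Abcd2 (-0.14) were not, with adjusted p of 0.092, 0.256 and 0.147.

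Ehhadh and Acaa1a were not called. Ehhadh had medians of 6.14 CPM (3.36 to 41.1) on 10% fat and 6.28 CPM (2.75 to 16.3) on 44% fat. Its log2 difference was 0.00 ± 0.04 (SE) with a 95% interval of -0.07 to 0.07 and an adjusted p of 0.966, and 12 strains lay above 0 and 8 below. Acaa1a had medians of 19.6 CPM (12.5 to 32.9) and 20.3 CPM (11.4 to 30.7) and a log2 difference of 0.01 ± 0.01 (SE), 95% interval -0.01 to 0.03, adjusted p = 0.659. A missed threshold does not show equal levels, and these intervals give the sizes that the data leave possible.

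**Figure D1:**
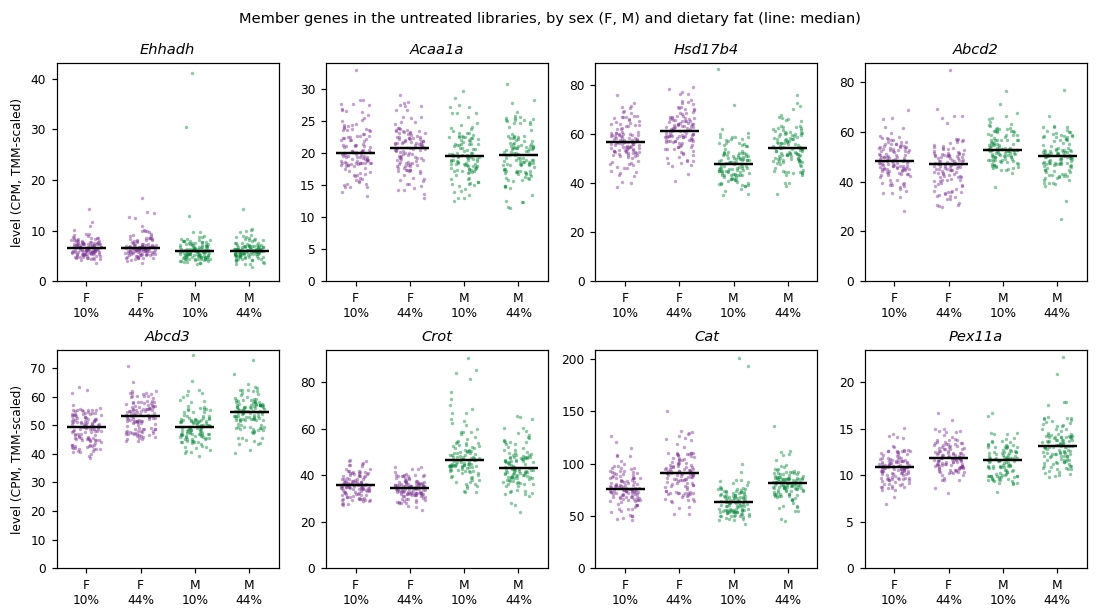
Level of each member in CPM (vertical axes, linear and starting at 0) in the 469 untreated libraries, 1 point per library, by sex (F, female, M, male) and percent of dietary fat, with a line at each group's median. The Cat median rises from 69.6 to 85 CPM with both sexes together, the Crot groups separate by sex, and the Ehhadh medians are 6.47 and 6.60 CPM in females and 5.94 and 6.06 CPM in males, with 2 male libraries at 41.1 and 30.5 CPM.

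**Figure D2:**
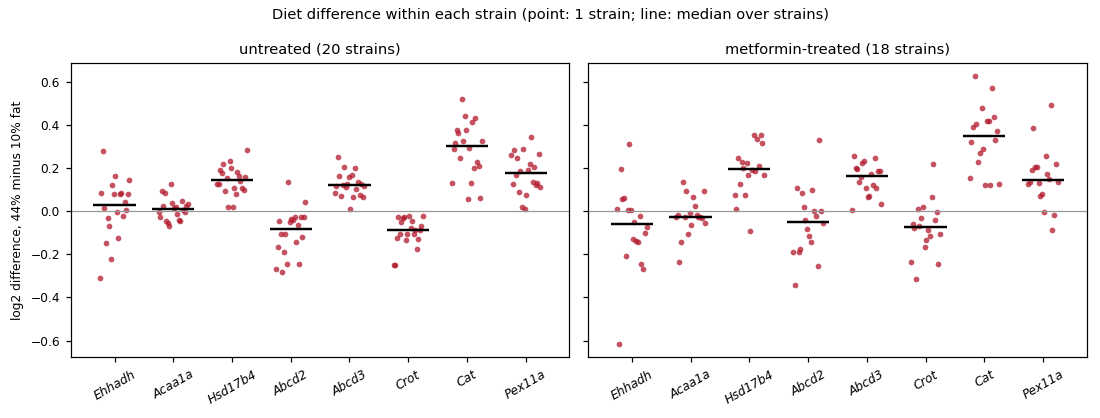
Difference between 44% and 10% fat within each strain on the log2 scale (vertical axis) for each member (horizontal axis), adjusted for sex and for the range of sequencing identifiers, with 1 point per strain and a line at the median over strains. In untreated animals all 20 points lie above 0 for Cat, Pex11a, Hsd17b4 and Abcd3 and below 0 for Crot.

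Animals on metformin, which the comparison above did not use, gave a second set of libraries for the same contrast. Of the 8 members, 5 were called there, Cat, Pex11a, Hsd17b4 and Abcd3 higher and Crot lower, against a background of 12.1% of 16418 genes, 5.27% higher and 6.79% lower. Cat had medians of 65.7 CPM (37.9 to 144.2) on 10% fat and 83.9 CPM (44.9 to 142.9) on 44% fat. Its log2 difference was 0.35 ± 0.03 (SE), adjusted p = 1.36e-19, with means of 67.5 ± 16.9 and 86.3 ± 17.5 CPM (SD over the treated animals of each diet). The differences were 0.17 ± 0.02 for Hsd17b4, 0.16 ± 0.02 for Pex11a, 0.15 ± 0.01 for Abcd3 and -0.09 ± 0.02 for Crot (SE), with adjusted p of 3.02e-14, 2.12e-08, 1.5e-17 and 0.00108. Abcd2 had a value of -0.08 ± 0.03 (SE) with an adjusted p of 0.0571, Ehhadh -0.07 ± 0.04 with 0.259 and Acaa1a -0.04 ± 0.02 with 0.195. In 18 strains the difference could be estimated with sex and identifier range in the model. Cat and Abcd3 were higher on 44% fat in all 18, Hsd17b4 in 17 and Pex11a in 15, while Crot was lower in 14 of them. Within the lower and upper identifier ranges alone Crot had values of -0.08 and -0.13 with adjusted p of 0.0503 and 0.0644, while the other 4 were called in both, where 3.78% and 5.06% of genes were.

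Whether the diet difference itself depended on sex or strain was asked with interaction terms. None of the 8 members was called for diet by sex, and 2 had an unadjusted p under 0.05, against a background of 0.568% of genes called. The lowest adjusted p was 0.131, for Crot, whose medians were 35.7 and 34.4 CPM in females and 46.6 and 43.1 CPM in males on 10% and 44% fat. None was called for diet by strain either (background 4.13%), with 1 unadjusted p under 0.05, that of Cat, whose adjusted p was 0.302. With limma-voom both counts were also 0, with 3 and 0 unadjusted p under 0.05.

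The sexes were compared among untreated animals, and the largest difference among the members was that of Crot. Crot ran from 25.1 to 46.3 CPM with a median of 35 in females and from 24 to 90.3 CPM with a median of 44.9 in males. Its means were 35.2 ± 4.20 (SD, n = 236) and 46.6 ± 9.78 CPM (SD, n = 233), a log2 difference of 0.39 ± 0.02 (SE), males minus females, with an adjusted p of 1.39e-83. Males were higher in all 20 strains, from 0.08 in (CC011/UncJ x CC005/TauUncJ)F1 to 0.74 in (CC042/GeniUncJ x CC040/TauUncJ)F1, and whether strains differ in this was not tested. The library at 90.3 CPM, a male of the latter strain, had summed hepatocyte markers of 3836 CPM, and another male at 83.7 CPM had 7384 CPM. Without libraries of high hepatocyte markers the highest untreated Crot level was 85.1 CPM. Crot was called for sex in all 14 analyses run. Sex took 41.2% of the variance of Crot, against a median of 1.58% over all genes tested.

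Abcd2 and Pex11a were also higher in males. Abcd2 had medians of 47.4 CPM (28.2 to 84.5) in females and 51.5 CPM (24.9 to 76.5) in males, a log2 difference of 0.13 ± 0.02 (SE), adjusted p = 2.26e-11, and was higher in males of 18 strains. Pex11a had medians of 11.3 CPM (6.94 to 16.7) and 12.3 CPM (8.18 to 22.7), a difference of 0.12 ± 0.02 (SE), adjusted p = 3.24e-11, and was higher in males of 19 strains. Abcd3 had a value of 0.03 ± 0.01 (SE) and an adjusted p of 0.0357, with males higher in 11 strains and lower in 9. It passed in only 6 of the 14 analyses run. Hsd17b4 and Cat were lower in males of all 20 strains. Hsd17b4 had medians of 58.8 CPM (38.6 to 78.9) in females and 51 CPM (35 to 86.2) in males and fell by 0.20 ± 0.01 (SE) on the log2 scale, adjusted p = 6.66e-41. Cat had medians of 82.8 CPM (46.3 to 150.3) and 72.6 CPM (42.4 to 200.4) and fell by 0.20 ± 0.02 (SE), adjusted p = 8.27e-15. Ehhadh and Acaa1a were lower in males by 0.10 ± 0.04 and 0.06 ± 0.01 (SE), with adjusted p of 0.00795 and 1.47e-05.

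All 8 members were therefore called for sex, 4 higher and 4 lower in males, where 67.1% of all 16384 genes were called, 30.1% higher and 37% lower. A count of 8 is read against that background. Markers of other cell and fibre types also differed by sex. The 7 slow-fibre markers summed to medians of 2180 CPM in females (1254 to 4442) and 1339 CPM in males (460 to 2643), and the 6 adipocyte markers to 218 CPM (60.3 to 1040) and 160 CPM (61.5 to 1027). In bulk muscle fewer cells of a type and less RNA per cell cannot be told apart. With the adipocyte markers as a term in the model 62.7% of genes were called, and the sex difference of Ehhadh was 0.03 and not called. With the slow-fibre markers as a term 52% of genes were called. Among the members Ehhadh, Abcd3 and Acaa1a were then not called, and Crot, Hsd17b4, Cat, Abcd2 and Pex11a were. Abcd2 had a sex difference of 0.22 with the adipocyte term and 0.08 with the slow-fibre term, both called, and Cat -0.12 with the slow-fibre term, also called. In the lower identifier range alone, where 65.8% of genes were called, all but Abcd3 were, and in the upper range, where 26.1% were, Crot (0.38), Pex11a (0.19) and Hsd17b4 (-0.17) were, while Cat had a value of -0.17 and an adjusted p of 0.0581 and Abcd2 a value of 0.08 and an adjusted p of 0.238.

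**Figure D3:**
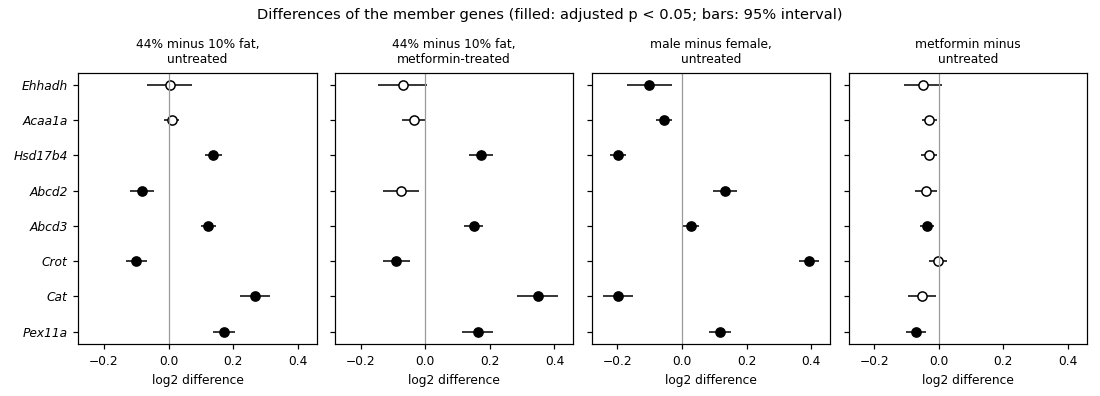
Log2 difference of each member (horizontal axes, with 95% intervals as bars) for diet in untreated and in metformin-treated animals, for sex and for metformin, with filled points at an adjusted p under 0.05. Cat, at 0.27 and 0.35, lies farthest to the right for diet, Crot, at 0.39, for sex, and the 8 points for metformin lie between -0.07 and -0.00.

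Treated and untreated animals were compared over all 703 libraries, with the limit that treated animals are the older ones. Abcd3 and Pex11a were lower with metformin and the other 6 members were not called, against a background of 19.4% of 17740 genes, 8.34% higher and 11% lower. Pex11a had medians of 11.7 CPM in untreated and 11.2 CPM in treated animals, with ranges that overlapped (6.94 to 22.7 and 7.84 to 17.8), and fell by 0.07 ± 0.02 (SE), adjusted p = 0.000244. Abcd3 had means of 51.6 ± 5.70 (SD, n = 469) and 50.9 ± 5.68 CPM (SD, n = 234) and fell by 0.04 ± 0.01 (SE), adjusted p = 0.00842. The other members lay between -0.05 (Cat and Ehhadh) and -0.00 (Crot), and Acaa1a, Hsd17b4, Cat and Abcd2 had unadjusted p under 0.05 with adjusted p of 0.0543 to 0.0961. Over the 14 analyses run, Pex11a was called in 13 and Abcd3 in 12. In the lower range of sequencing identifiers 4 members were called, where 21.8% of genes were. In the upper range none was, with values of -0.05 for Pex11a and -0.02 for Abcd3, but there edgeR called only 1 of 17683 genes. Without libraries of high hepatocyte markers Abcd3 had an adjusted p of 0.0719. No member was called for metformin by diet (background 0.0902%), by sex (3.12%) or by strain (11.6%), with 1, 0 and 0 unadjusted p under 0.05. With limma-voom these 3 counts were also 0, with 1, 0 and 1 unadjusted p under 0.05.

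Strains were compared in untreated animals to ask how far each member follows genetic background. All 8 members differed between the 20 strains, where 95.4% of all genes did, and they did so to very different degrees. Acaa1a, the thiolase, had 69.6% of its variance between strains, more than 96.9% of all genes tested, with an adjusted p of 4.23e-112. The shares were 32.2% for Hsd17b4, 24.6% for Crot, 20.1% for Ehhadh, 14.4% for Abcd3, 13.5% for Cat, 8.71% for Pex11a and 5.30% for Abcd2. The median was 17.2% over the members and 15.4% over all genes. Diet took 17.6% of the variance of Cat, 14.8% of Abcd3, 14.5% of Pex11a and 9.17% of Hsd17b4, against a median of 0.0726% over all genes. Strain thus held the largest of the 3 shares for Acaa1a, Hsd17b4 and Ehhadh, sex for Crot and Abcd2, and diet for Cat, Abcd3 and Pex11a. In metformin-treated animals this order turned for Cat (strain 25.8%, diet 23.7%), Abcd3 (strain 23.2%, diet 21.8%) and Abcd2 (strain 16.2%, sex 7.85%).

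Acaa1a was highest in (CC042/GeniUncJ x CC040/TauUncJ)F1, at 26.1 ± 2.99 CPM (SD, n = 24), and lowest in (CC051/TauUncJ x CC059/TauUncJ)F1, at 14.6 ± 1.39 CPM (SD, n = 24), a ratio of 1.79. The ranges of these 2 strains, 20.8 to 32.9 and 11.4 to 17.1 CPM, did not overlap. Next to the lowest came (CC051/TauUncJ x CC019/TauUncJ)F1 at 14.7 ± 1.67 CPM (SD, n = 24), and the step from there to the next strain up, (CC009/UncJ x CC013/GeniUncJ)F1 at 17 ± 2.80 CPM (SD, n = 10), was the largest in the order. Of the 19 pairs of neighbours in the order, 18 differed by less than their mean SD. Because Acaa1a shares sequence with Acaa1b, its strain levels can also depend on how reads were divided between them, which was not tested.

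Crot ranged from 32.1 ± 4.15 CPM (SD, n = 26) in (CC011/UncJ x CC005/TauUncJ)F1 to 52.9 ± 15.2 CPM (SD, n = 24) in (CC002/UncJ x CC043/GeniUncJ)F1. The 3 highest strains for Crot, with means of 52.9, 48.8 and 48.3 CPM, are the 3 with CC043/GeniUncJ as a parent, and the other 17 had means of 32.1 to 44.0 CPM. Hsd17b4 ranged from 45 ± 6.35 CPM (SD, n = 24) in (CC002/UncJ x CC075/UncJ)F1 to 64 ± 7.32 CPM (SD, n = 24) in (CC043/GeniUncJ x CC011/UncJ)F1. The 3 crosses of CC075/UncJ, at 45, 48.5 and 50.4 CPM, are among its 4 lowest strains, with (CC051/TauUncJ x CC059/TauUncJ)F1 at 48.4 CPM between them. These parental lines were picked out after the strain means were known, strains that share a line are not independent, and no test was made. Cat ranged from 63 ± 11.2 to 90.1 ± 21.1 CPM (SD, n = 24 each) and Ehhadh from 5.02 ± 1.23 to 8.73 ± 5.14 CPM (SD, n = 24 each). The top of the Ehhadh order rested on libraries with hepatocyte markers. Without them (CC043/GeniUncJ x CC042/GeniUncJ)F1 was highest at 8.45 ± 1.65 CPM (SD, n = 24). Abcd2, Abcd3 and Pex11a spanned 1.21, 1.26 and 1.21 times between their lowest and highest strain means. For all members but Acaa1a and Crot, every pair of neighbouring strains differed by less than their mean SD.

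**Figure D4:**
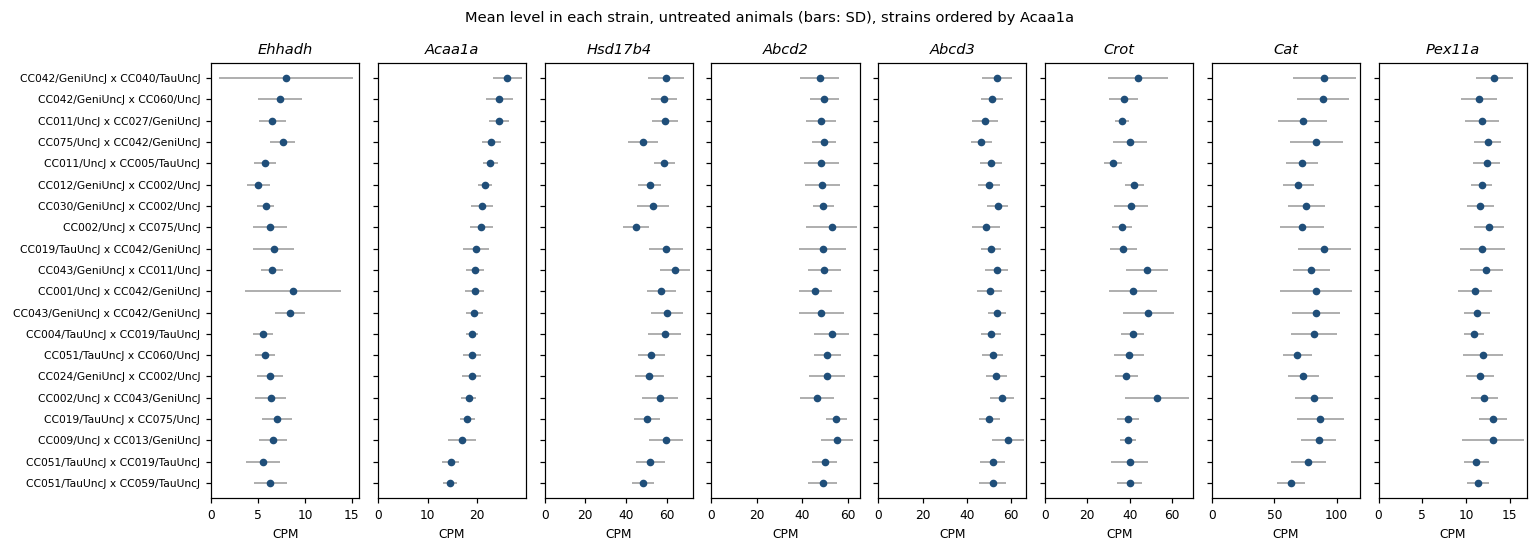
Mean level of each member (horizontal axes, CPM from 0) in each of the 20 strains, untreated animals, with bars of 1 SD and strains ordered by Acaa1a. Acaa1a runs from 14.6 to 26.1 CPM with short bars, and Abcd2 and Pex11a vary least between strains.

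The members were then compared across the 469 untreated animals after strain, sex, diet and identifier range had been removed from log2 CPM. All pairs share the same libraries and scaling factors. Of 28 pairs, 20 had a positive r and 2 a negative r with an adjusted p under 0.05 (permutation within strains, 100000 resamples, Benjamini-Hochberg over the 28 pairs). Of these 22 pairs, 17 were also called by rho. Over all 28 pairs, r of 6 changed sign in a single identifier range, in treated animals or with variance-stabilised values. Acaa1a and Crot, called with r = -0.10, had 0.11 in the upper range. Abcd3 and Pex11a, called with r = 0.23 and rho = 0.24, had r = -0.18 there. The pairs of highest r were Hsd17b4 and Cat (r = 0.57, rho = 0.54), Abcd3 and Cat (r = 0.56, rho = 0.50) and Hsd17b4 and Abcd3 (r = 0.44, rho = 0.40). Each had a permutation p of 1e-05 for r and for rho, the smallest these permutations can give, and adjusted p of 2.33e-05 and 2.55e-05. Without the 2 libraries farthest from the median of the first gene, r was 0.52, 0.53 and 0.40. In the lower identifier range r was 0.57, 0.55 and 0.44, and in the upper range 0.54, 0.56 and 0.39. In metformin-treated animals r was lower, at 0.46, 0.37 and 0.26. These 3 genes are also among those higher on 44% fat. Ehhadh and Abcd2 had r = 0.43 and rho = 0.41, and Abcd2 and Crot r = 0.34 and rho = 0.32, with the same p-values, and r of 0.46 and 0.34 without the 2 farthest libraries. In the lower range these were 0.45 and 0.32, and in the upper range 0.36 and 0.55.

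Acaa1a had lower values with Hsd17b4, Cat and Abcd3 than these had with each other. With Hsd17b4 it had r = 0.18 and rho = 0.15 (permutation p = 0.00027 and 0.00093, adjusted p = 0.000472 and 0.002), r = 0.17 without the 2 farthest libraries, and 0.14 and 0.28 in the lower and upper ranges. With Abcd3 it had r = -0.20 and rho = -0.21 (permutation p = 5e-05 and 2e-05, adjusted p = 0.0001 and 4.67e-05), r = -0.17 without the 2 farthest libraries, and -0.21 and -0.29 in the lower and upper ranges. With Cat it had r = 0.01 and rho = -0.01 (permutation p = 0.808 and 0.784, adjusted p the same), and r of -0.02 and 0.09 in the lower and upper ranges. With Pex11a it had r = 0.33 and rho = 0.28 (permutation p = 1e-05, adjusted p = 2.33e-05 and 2.55e-05), 0.30 without the 2 farthest libraries, and 0.27 and 0.55 in the lower and upper ranges. Ehhadh and Cat had r = 0.31 but rho = 0.11 (permutation p = 1e-05 and 0.0192, adjusted p = 2.33e-05 and 0.0316), r = 0.23 and 0.58 in the lower and upper ranges, and r = 0.17 without the 2 farthest libraries, so this relation rested in part on those libraries.

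Adipocyte, hepatocyte and slow-fibre markers moved with some members within groups. In 32 relations computed of 4 marker lists with 8 members, the adipocyte list had r = 0.41 and rho = 0.32 with Abcd2 and r = 0.31 and rho = 0.24 with Ehhadh (permutation p = 1e-05 for each, adjusted p = 5.33e-05 for r and 0.00016 for rho). Without the 2 farthest libraries r was 0.36 and 0.29. In the lower identifier range r was 0.43 and 0.37, and in the upper range 0.27 and 0.01, so the relation of Ehhadh did not hold there. The hepatocyte list had r = 0.28 with both Cat and Ehhadh (permutation p = 1e-05, adjusted p = 5.33e-05), with rho = 0.14 and 0.12 (p = 0.00315 and 0.0135, adjusted p = 0.0168 and 0.0361). Without the 2 farthest libraries r was 0.19 and 0.18, and in the lower and upper ranges 0.23 and 0.42 for Cat and 0.25 and 0.26 for Ehhadh. Other relations also had an adjusted p under 0.05 for both r and rho in this test. They were the adipocyte list with Cat (r = 0.22, but -0.01 in the upper range) and Hsd17b4 (0.20), and the hepatocyte list with Crot (0.22). The slow-fibre list was related in this way to Hsd17b4 (r = 0.17) and Cat (0.13). The same adipocyte markers summed to medians of 191 CPM on 10% fat (61.5 to 995) and 190 CPM on 44% fat (60.3 to 1040). With their level in the model 6 members were still called for diet, where 20.8% of genes were.

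Each member was also set beside 10111 named genes whose mean log2 CPM was 1 or more, by the same residual r over 469 libraries, as a description. The 2 most similar genes were Acsl1 (r = 0.68) and Acot2 (r = 0.68) for Cat, Acsl1 (0.63) and Nudt7 (0.59) for Hsd17b4, and Acsl1 (0.62) and Cd36 (0.54) for Abcd3. Acsl1 encodes an acyl-CoA synthetase that activates long-chain fatty acids, and Cd36 a fatty acid transporter of the cell surface. Pex11a was most like Ech1 and Hadhb (r = 0.54 each), an isomerase of unsaturated fatty acids and a subunit of the mitochondrial trifunctional protein. Ehhadh was most like Aldh1l1 (0.59) and Ppp1r3b (0.54), Abcd2 like Ghr and Egflam (0.57 each), Acaa1a like Cenpb (0.58) and Atp5d (0.57), and Crot like Sms (0.51) and Sar1b (0.48).

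Other genes of peroxisomes and of beta-oxidation were described from lists. Their counts for diet are read against 20.3% of all genes called, 10.1% higher and 10.1% lower. Of 24 other genes of peroxisomal beta-oxidation, 22 were in the table and tested, of which 11 were higher on 44% fat, 2 lower and 9 not called. Ech1, the dienoyl-CoA isomerase, rose from 89.4 ± 13.7 (SD, n = 234) to 123.1 ± 21 CPM (SD, n = 235), a log2 difference of 0.46 ± 0.02 (SE), adjusted p = 1.5e-95. Mlycd (0.30 ± 0.03), which degrades malonyl-CoA, and Eci2 (0.24 ± 0.02), an enoyl-CoA isomerase, rose too, with adjusted p of 3.16e-25 and 7.09e-42. Acaa1b, at 0.72 ± 2.99 (SD) on 10% and 0.80 ± 1.59 CPM on 44% fat, rose by 0.39 ± 0.15 (SE) with an adjusted p of 0.0453. In metformin-treated animals it had -0.04 ± 0.20 (SE), adjusted p = 0.931. Hacl1, a lyase of branched-chain oxidation, fell by 0.16 ± 0.03 and Nudt19, a hydrolase of CoA, by 0.04 ± 0.01 (SE), with adjusted p of 7.45e-05 and 0.025. The SD of Hacl1 was 3.03 CPM on 10% fat and 0.94 CPM on 44% fat. In metformin-treated animals Hacl1 had -0.09 ± 0.04 and Nudt19 -0.05 ± 0.02 (SE), with adjusted p of 0.138 and 0.0417.

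Of 15 peroxins, proteins that build and divide peroxisomes, 5 were higher on 44% fat and 10 were not called. The largest values were 0.08 ± 0.02 for Pex16 and 0.07 ± 0.01 for Pex19 (SE), with adjusted p of 0.00136 and 3.18e-08, below the 0.17 of Pex11a. Of 13 other peroxisomal proteins tested 4 were higher and 2 lower, led by Ephx2, an epoxide hydrolase, at 0.29 ± 0.02 (SE), adjusted p = 2.04e-31, and by Gstk1, a glutathione transferase, at -0.09 ± 0.02, adjusted p = 3.25e-06. All 16 genes of mitochondrial beta-oxidation were higher, with a median log2 difference of 0.27 against -0.00 over all genes and 0.07 over the 8 members. Acadl, a long-chain acyl-CoA dehydrogenase, rose by 0.43 ± 0.02 (SE), adjusted p = 4.19e-80, and Slc25a20, the carnitine carrier, by 0.31 ± 0.02, adjusted p = 1.6e-58. Of 8 PPAR and RXR receptors and coactivators, Ppargc1b alone was called, at 0.12 ± 0.03 (SE), adjusted p = 0.00458. Ppara, named outside the rule after its values were seen, had means of 9.53 ± 3.53 (SD, n = 234) and 9.55 ± 3.27 CPM (SD, n = 235), a value of 0.02 ± 0.04 (SE), adjusted p = 0.747. In metformin-treated animals the numbers called higher and lower for diet were 6 and 1 of 22, 1 and 0 of 15, 2 and 1 of 13, 16 and 0 of 16, and 0 and 0 of 8, in the same order of lists. There 12.1% of all genes were called, 5.27% higher and 6.79% lower.

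**Figure D5:**
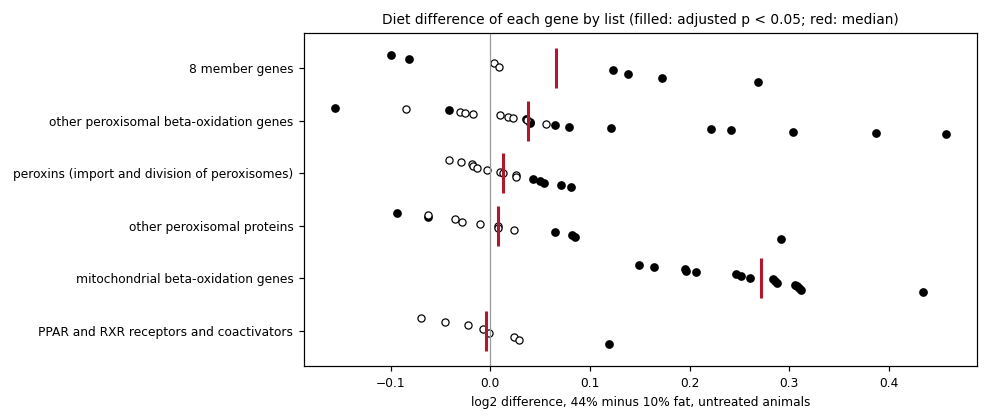
Log2 difference between 44% and 10% fat in untreated animals (horizontal axis) of every tested gene of 6 lists, 1 point per gene, filled at an adjusted p under 0.05, with a red line at the median of the list. All 16 mitochondrial genes lie above 0, while the 8 members lie on both sides, from -0.10 for Crot to 0.27 for Cat.

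The same lists were compared between sexes and for metformin. Of all genes tested, 67.1% were called for sex, 30.1% higher and 37% lower in males. For metformin 19.4% were called, 8.34% higher and 11% lower. In males 12 mitochondrial genes were higher and 2 lower, among them Cpt1b, the muscle carnitine palmitoyltransferase, at 0.16 ± 0.01 (SE), adjusted p = 3.44e-32. Of the 22 peroxisomal beta-oxidation genes 7 were higher in males and 10 lower, with Phyh, which starts the oxidation of phytanic acid, at 0.28 ± 0.01 (SE), adjusted p = 3.03e-63. Among peroxins 5 were higher and 4 lower, among other peroxisomal proteins 3 and 7, and among receptors 4 and 3. With metformin none of the list genes was called higher. Lower were 8 of 22 peroxisomal beta-oxidation genes, 1 of 15 peroxins, 5 of 14 other peroxisomal proteins, 12 of 16 mitochondrial genes and 2 of 8 receptors. Ppara had means of 9.54 ± 3.40 (SD, n = 469) and 7.97 ± 2.61 CPM (SD, n = 234) and fell by 0.23 ± 0.04 (SE), adjusted p = 8.76e-08.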

How the data were processed

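Poly(A) RNA libraries were sequenced as 100-bp pairs. The authors aligned both mates as single-ended reads to an 8-founder transcriptome with EMASE and GBRS, filtered out genes with few reads, and deposited estimated counts per gene. Every gene in the table had a count above 0 in at least 50.07% of libraries. They also deposited log2-like values from the variance-stabilising transformation of DESeq2. The submitters' processing notes name GRCm38. Estimated counts were used as deposited and tested with edgeR 4.0.16 (TMM factors, filterByExpr with a minimum count of 10, quasi-likelihood F test, Benjamini-Hochberg over all genes tested). The model held strain, sex, diet and identifier range as terms, and treatment where it was compared. Interactions were added to that model. Variance shares (omega squared) and residual correlations used log2 CPM with a prior count of 2. Alternatives were limma 3.58.1 (voom, and trend on the deposited log2 values), DESeq2 1.42.0 except for strain, other scaling and filters, single identifier ranges, marker terms and left-out libraries. The scripts were tested on simulated data. Of 1404 pairs of libraries with equal labels, 0 were identical. 0 columns of values lacked a sample.

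The members, lists, tests and naming rule were chosen with earlier results of these data known. The rule named the 8 members, from each list the called genes of largest log2 difference, at most 4 per direction, and for each member the 2 genes of highest residual r. A gene that the rule also named is not reported here.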

Additional observations from a re-analysis of the deposited data

How the results depend on the processing

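For single members, 100 repeats of the diet comparison kept direction and side of the threshold and 3 lost the call, 36 and 2 in treated animals, 89 and 14 for sex, and 86 and 3 for metformin. Another 5 gained a call for metformin, and 1 in treated animals, where Abcd2 had an adjusted p of 0.0491 with limma-voom. In the upper identifier range alone 3 members were called for diet, where 2.2% of genes were, and 3 for sex, where 26.1% were. There 0 were called for metformin, where edgeR called 1 of 17683 genes. With the slow-fibre term 5 were called for sex, where 52% of genes were. For metformin 4 were called without the filter (18.1% of genes) and 4 in the lower range (21.8%). Only 1 (Pex11a) was called without libraries of high hepatocyte markers, where 15.1% of genes were. The counts of called members for strain and for all interactions did not change by more than 1.5 times under the alternatives run. Some values changed sign. Ehhadh, at -0.10 and called for sex, had 0.0307 there with the adipocyte term and was not called. It had -0.0773 for diet and 0.0143 for diet in treated animals in the upper range, not called in either. Abcd2 had 0.0158 for metformin in the upper range. Crot, at -0.00 for metformin, had 0.00064 with DESeq2's size factors, 0.00010 with limma-voom, 0.0046 in the lower range and 0.0108 without the range term. It had 0.0061 without libraries that went against their label, 0.0078 without libraries of high hepatocyte markers and 0.0025 with the variance-stabilised values. With DESeq2 it had 0.00066 and with a hepatocyte term 0.0022. The cause was not tested. The hepatocyte term was chosen after seeing the data. Ehhadh, with a median of 306 counts, had the widest intervals for diet. No paired analysis was possible because every label carries the same replicate number.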

Other observations

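Ehhadh and Cat were also set by parental line. For Ehhadh, the 6 crosses of CC042/GeniUncJ had means of 6.70 to 8.73 CPM with a median of 7.79, and the other 14 had means of 5.02 to 7.06 CPM with a median of 6.26. For Cat the same 6 strains had means of 83.6 to 90.1 CPM and the other 14 of 63 to 86.8 CPM, with medians of 86.4 and 74.4. The ranges overlapped for both genes. The 3 highest libraries of each gene came from crosses of CC042/GeniUncJ and had summed hepatocyte markers of 7384, 3836 and 1969 CPM. Without all libraries of high hepatocyte markers, an alternative chosen after seeing the data, the medians with and without this line were 7.21 and 6.20 CPM for Ehhadh and 84.9 and 74.2 CPM for Cat. Acaa1a had means of 14.6, 14.7 and 19 CPM in the 3 strains with CC051/TauUncJ and of 17 to 26.1 CPM in the other 17. These lines were looked at after the strain means were known, strains that share a line are not independent, and no test was made.

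In metformin-treated animals the share of variance between strains was 68.1% for Acaa1a and 19.2% for Crot, and sex took 44.8% of the variance of Crot.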
